A study of Mus musculus with 16 samples.

Results

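The genes described are 9 postsynaptic scaffold genes: Dlg1, Dlg2, Dlg3 and Dlg4, Shank1, Shank2 and Shank3, and Dlgap1 and Dlgap3. They were taken by gene symbol from the deposited tables, in which 17986 genes are shared by all libraries used. The symbol rule reads no measured value, but the 9 genes were chosen with earlier results of these data known. All 9 were found and all 9 passed the filter on low values. The study sequenced bulk RNA from CA1, a subfield of the hippocampus that was cut from frozen brain sections of male mice with a laser microscope. The mice had a C57Bl6 background and were 3 to 6 months old, and each library came from 1 animal. They were wild type or Neil3-/-, that is, without the DNA glycosylase Neil3 of base excision repair, in all cells as far as the labels say. Home cage mice had no intervention (2 libraries of each genotype label). Exploration mice had been trained in an open arena with a cue card and food cues in daily sessions of 20 min over 1 week, the last of which ended 20 min before death (3 libraries of each genotype label).

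Scaffold proteins of the Dlg family (MAGUKs) lie under the membrane of excitatory synapses and hold glutamate receptors, adhesion molecules and potassium channels through their PDZ domains. Dlgap proteins bind the guanylate kinase domain of the MAGUKs and pass their C-terminal end to the PDZ domain of the Shank proteins. Shank proteins form the deeper layer of the postsynaptic density and connect it to Homer proteins and to actin. In CA1 pyramidal cells these proteins set how many receptors a synapse can hold, and several of the RNAs, Shank RNAs among them, are also found in dendrites.

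The families are paralogs, so the stretches in which fragments could be confused between members are shown first. They come from the longest GENCODE M21 transcript on GRCm38 among those matched to each gene through the transcripts listed with its values. Capitals mark the longest run of bases that both coding sequences share. Dlg2 and Dlg4 share a run that codes for the ligand-binding loop of a PDZ domain.

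Dlg2: ctGGCCTGGGCTTCAACATTGTGGGCGGgg
Dlg4: ccGGCCTGGGCTTCAACATTGTGGGCGGcg

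Dlg2 and Dlg3 share a run in the SH3 domain.

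Dlg2: atGCCTCTGATGATGAGTGGTGGCAAGCca
Dlg3: acGCCTCTGATGATGAGTGGTGGCAAGCaa

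Shank1 shares its longest run with Shank3 in the ankyrin repeats, and a shorter one with Shank2.

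Shank1: ggCTGCTGGACAAGGGGCTGGACCCCAAct
Shank3: gcCTGCTGGACAAGGGGCTGGACCCCAAtt

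Shank1: acacaGTGGGCTCCTATGACAGCTTcgatg
Shank2: acacgGTGGGCTCCTATGACAGCTTtgatg

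The last coding bases of the Dlgap genes are shown because they encode the end that Shank PDZ domains hold; the final 12 coding bases before the stop are in capitals.

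Dlgap1: atctacatccccgaggcgCAGACCCGGCTC
Dlgap3: atctacatccccgaggccCAGACCAGGCTG

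Over the 15 pairs of paralogs compared, with Dlgap2 and Dlgap4 included, the longest shared run was 16 to 26 nt. No pair shared a stretch of 100 nt, the length of a read. A read therefore spans every shared run, and the values of the members were treated as separate measurements.

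In GRCm38 all 9 genes are annotated on the plus strand, and 3 of them (Dlg2, Shank1 and Shank2) lie on chromosome 7. The coordinates that follow are those of the longest matched transcript and need not cover the whole gene. The transcript of Dlg1 spans chr16:31663443-31875129 with 26 exons, that of Dlg2 chr7:91090706-92449247 with 23, that of Dlg3 chrX:100767749-100818408 with 21 and that of Dlg4 chr11:70018441-70047522 with 20. The transcript of Shank1 spans chr7:44310253-44360572 with 25 exons, that of Shank2 chr7:144175529-144424494 with 16 and that of Shank3 chr15:89499857-89560261 with 22. The transcript of Dlgap1 spans chr17:70522136-70821409 with 10 exons and that of Dlgap3 chr4:127172880-127237022 with 12. The transcripts are long. Dlgap3, the shortest, has 4207 nt, and Shank1, the longest, has 9826 nt, longer than those of 97.6% of the tested genes. Shank1, Shank3 and Dlgap3 are rich in G and C (61.4%, 61.7% and 63.9% of bases), and Dlg1 and Dlg2 are not (43.8% and 44.5%).

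Values are FPKM, fragments scaled to transcript length and library depth, in 1 table of 6 exploration libraries and another of 4 home cage libraries. The depth estimated from the spacing of low values was 18800000 to 20000000 fragments per library, and 11114 to 11623 genes reached 1 FPKM. Neil3 went against its labels. No wild-type-labelled library exceeded 0.05 FPKM (5 libraries), whereas the 5 that carry the Neil3-/- label ran from 8.35 to 15.22 FPKM (mean 12.86 ± 2.87 SD, n = 5; exact permutation test, two-sided, p = 0.00794, the smallest that 252 splits allow). The groups are therefore called WT-labelled and KO-labelled, and each direction between them holds for the labels only. CA1 pyramidal markers (Wfs1, Fibcd1, Pou3f1, Mpped1) summed to 604 to 747 FPKM over all libraries. The 8 markers of CA2, CA3 and the dentate gyrus summed to 110 to 171 FPKM, mostly Rgs14 (94.1 to 127 FPKM), with Bok at 4.53 to 32.4 FPKM, Amigo2 at 0.9 to 16.9 FPKM and Prox1 at or under 0.5 FPKM. The 18S ribosomal RNA gene Rn18s separated the tables, with 1714.68 to 2398.35 FPKM in the home cage libraries and 5.69 to 10.56 FPKM in the exploration libraries. Since each environment is in its own table, environment and table cannot be told apart. The replicate numbers only name libraries.

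Dlg4, which encodes the main MAGUK of mature excitatory synapses, had the highest level of the 9 genes in every library. Per transcript length it stood at 246.39 and 236.68 FPKM in the home cage WT-labelled libraries, 278.99 and 270.1 FPKM in the home cage KO-labelled libraries, 277.45, 289.16 and 258.32 FPKM in the exploration WT-labelled libraries, and 235.29, 273.07 and 257.17 FPKM in the exploration KO-labelled libraries. In the home cage both KO-labelled libraries were above both WT-labelled ones, and after exploration the 2 genotype labels overlapped. Dlg4 made up 62.5% to 67.9% of the summed FPKM of the 4 Dlg genes in every library.

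Dlg3, the MAGUK that is known for its part in receptor delivery early in development, came next in its family with 87.01 and 89.67, 82.85 and 78.34, 89.55, 87.81 and 91.5, and 85.73, 89.9 and 93.71 FPKM in the same order of groups. The low values were those of the home cage KO-labelled libraries. Its coefficient of variation over the 10 libraries was 5.08%, the smallest of the 9.

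Dlg2, which clusters potassium channels and NMDA receptors, stood at 39.72 and 40.49 FPKM (home cage WT-labelled), 39.72 and 46.88 FPKM (home cage KO-labelled), 37.4, 36.85 and 34.54 FPKM (exploration WT-labelled), and 33.31, 37.48 and 35.48 FPKM (exploration KO-labelled). All 6 exploration libraries lay below all 4 home cage libraries. Dlg1, whose protein carries AMPA receptors on their way to the membrane, was the lowest of the family at 12.33 and 11.93, 11.55 and 14.55, 11.88, 12.27 and 10.48, and 12.04, 10.46 and 9.56 FPKM. Its groups overlapped in every comparison of genotype labels or environments.

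Dlgap1, the partner of the MAGUK guanylate kinase domain with the second highest level of the 9 genes, stood at 163.6 and 170.05 FPKM (home cage WT-labelled), 143.14 and 142.87 FPKM (home cage KO-labelled), 159.31, 157.5 and 161.07 FPKM (exploration WT-labelled), and 151.3, 176.2 and 158.11 FPKM (exploration KO-labelled). The home cage KO-labelled libraries were the lowest of all and lay close together. Dlgap3, the Dlgap protein best known from the striatum, stood at 62.37 and 63.25, 79.13 and 72.76, 64.76, 72.66 and 58.17, and 53.05, 67.14 and 66.12 FPKM in that order. Here the home cage KO-labelled libraries were the highest of all, the opposite of Dlgap1.

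Shank1, a scaffold of large spines, stood at 31.5 and 32.18 FPKM (home cage WT-labelled), 33.02 and 45.14 FPKM (home cage KO-labelled), 26.33, 26.72 and 19.03 FPKM (exploration WT-labelled), and 13.43, 22.52 and 18.91 FPKM (exploration KO-labelled). Shank2 stood at 12.06 and 13.67, 12.92 and 17.54, 9.47, 9.67 and 7.07, and 5.02, 8.43 and 7.01 FPKM in that order. For both genes every exploration library was below every home cage library, home cage KO-labelled library 2 was the highest and exploration KO-labelled library 1 the lowest. Shank3, the member whose loss underlies Phelan-McDermid syndrome, stood at 21.66 and 22.76, 24.68 and 27.86, 23.89, 25.08 and 19.71, and 19.58, 25.3 and 21.04 FPKM, and its exploration libraries overlapped the home cage ones.

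**Figure D1:**
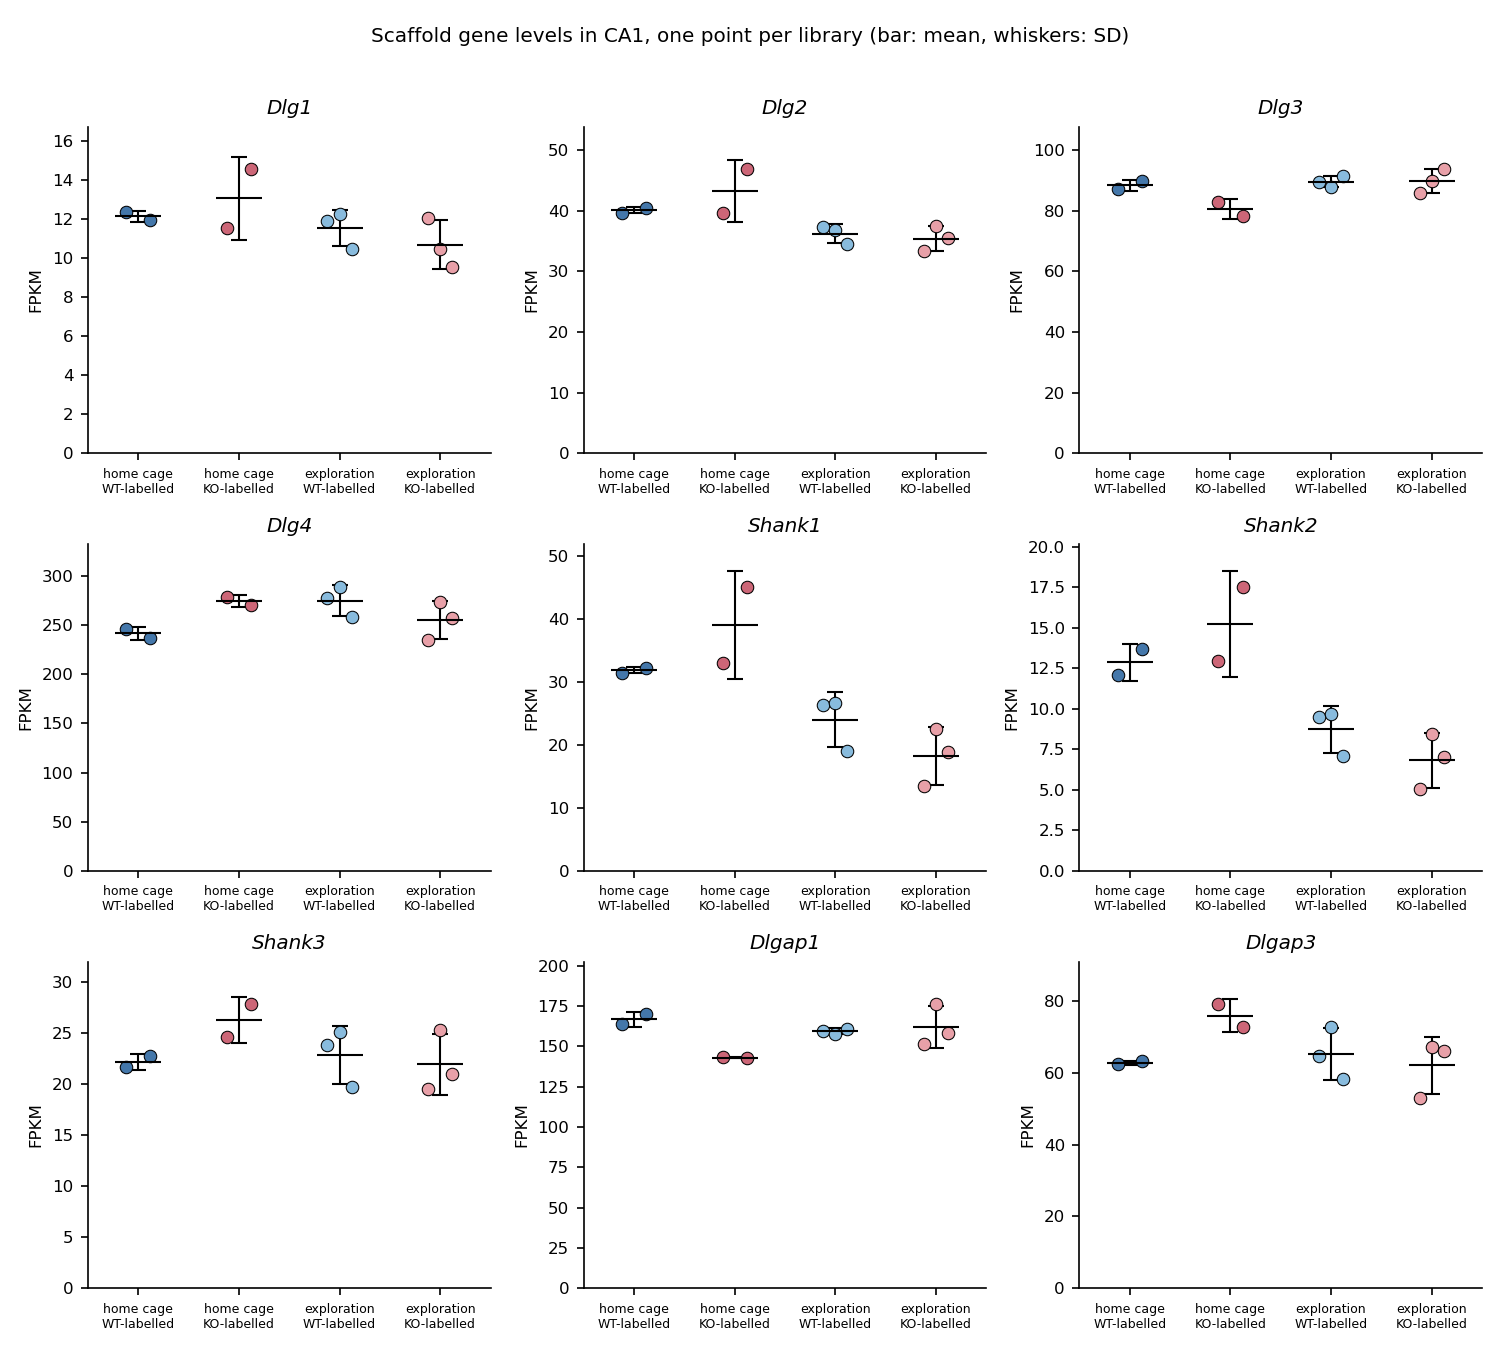
FPKM (y axis, from 0) of the 9 scaffold genes in each of the 4 groups of environment and genotype label (x axis); each point is a library, the bar the group mean and the whiskers the SD. All 6 exploration libraries are below the 4 home cage libraries for Shank1, Shank2 and Dlg2, with larger changes for Shank1 and Shank2 than for Dlg2. Dlg3 and Dlgap1 differ by little between the environments when the genotype labels are averaged. For both genes the home cage KO-labelled libraries are the lowest.

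The order of the levels was nearly the same in every library. Dlg4 was above Dlgap1, Dlgap1 above Dlg3, Dlg3 above Dlgap3, Dlgap3 above Dlg2 and Dlg2 above Shank1 in 10 of 10 libraries each, with means over all libraries of 262.3, 158.3, 87.61, 65.94, 38.19 and 26.88 FPKM. Shank1 and Shank3 had no common order: Shank1 was the higher in all 4 home cage libraries, and in 6 of 10 libraries in all. Dlg1 and Shank2, the lowest pair, also traded places, with Dlg1 the higher in 7 of 10. The sum of the 9 genes ran from 608.8 to 717.7 FPKM. Their spread was unequal. The highest library exceeded the lowest 3.36-fold for Shank1 and 3.49-fold for Shank2, against 1.2-fold to 1.52-fold for the other 7. The coefficients of variation were 33.9% and 36.6% for this pair and at most 11.6% for the rest. The fewest fragments behind a member's value were about 790, for which counting error alone gives a coefficient of variation of 3.56%.

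Differences between the genotype labels were asked first in the home cage. With 2 libraries a group, 7 of the 9 genes had a positive log2 change (KO-labelled minus WT-labelled) and the median over the 9 was 0.18, beside −0.02 over all tested genes. The largest were those of Dlgap3, from 62.81 ± 0.622 to 75.94 ± 4.5 FPKM (SD, n = 2 each), and of Shank1, from 31.84 ± 0.481 to 39.08 ± 8.57 FPKM, each with a log2 change of 0.27. Dlgap1 differed the other way, with 166.8 ± 4.56 FPKM in the WT-labelled and 143 ± 0.191 FPKM in the KO-labelled libraries. None of the 9 passed limma's test at an adjusted p under 0.05, while 3.57% of all tested genes did, and 1 of the 9 (Dlgap1) had an unadjusted p under 0.05. Its log2 change was −0.22 (SE 0.08, 95% interval −0.4 to −0.04, limma adjusted p = 0.182). For Dlgap3 the interval was 0 to 0.54 (limma adjusted p = 0.275) and for Shank1 −0.2 to 0.75 (limma adjusted p = 0.562). The libraries did not overlap for 6 of the 9 genes (Dlg4, Shank1, Shank3 and Dlgap3 higher, Dlg3 and Dlgap1 lower), beside 46.9% of all tested genes in groups this small. Astrocyte markers (6 genes) summed to 79 to 84.2 FPKM in the WT-labelled and 117 to 141 FPKM in the KO-labelled home cage libraries, and oligodendrocyte markers to 137 to 164 and 188 to 225 FPKM. In the KO-labelled home cage libraries the CA1 marker Wfs1 was lower (log2 change −1.17, limma adjusted p = 0.0358) and Mpped1 higher (0.42, limma adjusted p = 0.0387). The part of these markers in the values was not tested, and in bulk tissue fewer cells of a type and less RNA per cell cannot be told apart.

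After exploration, with 3 libraries a group, 7 of the 9 genes had a negative log2 change and the median over the 9 was −0.07, beside −0.01 over all tested genes. Shank1 had 24.03 ± 4.33 FPKM under the WT label and 18.29 ± 4.58 FPKM under the KO label (SD, n = 3 each), and Shank2 8.737 ± 1.45 and 6.82 ± 1.71 FPKM. Their log2 changes were −0.39 (SE 0.18, 95% interval −0.78 to 0) and −0.33 (SE 0.17, −0.7 to 0.04), with limma adjusted p-values of 0.289 and 0.336. Dlg4 had 275 ± 15.6 and 255.2 ± 19 FPKM, a log2 change of −0.11 (limma adjusted p = 0.47). No member passed limma's test, beside 0.597% of all tested genes, and 1 of the 9 (Shank1) had an unadjusted p under 0.05. The libraries of the genotype labels overlapped for all 9 genes, while 24.9% of all tested genes showed no overlap. Dlg3 and Dlgap1 were nearly level, with log2 changes of 0 and 0.02.

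Averaged over both environments, the log2 changes between the genotype labels ran from −0.1 (Dlgap1) to 0.1 (Dlgap3). Limma called 0 of the 9, none with an unadjusted p under 0.05, beside 2.13% of all tested genes. The adjusted p-values were 0.322 for Dlgap1 and 0.517 for Dlgap3 in limma's test.

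The other comparison asked how the levels differed between exploration and home cage. Each environment is in its own table, so every fall or rise after exploration given below is also a difference between tables. In the WT-labelled libraries (3 against 2) Shank2 went from 12.87 ± 1.14 to 8.737 ± 1.45 FPKM and Shank1 from 31.84 ± 0.481 to 24.03 ± 4.33 FPKM. Their log2 changes were −0.52 (SE 0.19, 95% interval −0.93 to −0.11) and −0.41 (SE 0.2, −0.84 to 0.03). Dlg4 was higher after exploration in 3 of 3 libraries, at 275 ± 15.6 against 241.5 ± 6.87 FPKM (log2 change 0.19, SE 0.08). None of the 9 genes passed limma's test, beside 6.31% of all tested genes, and 2 (Shank2 and Dlg4) had an unadjusted p under 0.05. The limma adjusted p-values were 0.125 for Shank2, 0.247 for Shank1 and 0.212 for Dlg4. The libraries did not overlap for 5 genes (Dlg2, Shank1, Shank2 and Dlgap1 lower, Dlg4 higher), where 47.8% of all tested genes showed this. Dlg1, Dlg3, Shank3 and Dlgap3 had log2 changes of −0.07, 0.02, 0.04 and 0.05.

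In the KO-labelled libraries Shank1 and Shank2 were far lower after exploration, by more than any other member. Shank1 went from 39.08 ± 8.57 (n = 2) to 18.29 ± 4.58 FPKM (n = 3), and fell by 52.3% on the scale of FPKM + 1 (log2 change −1.07, SE 0.2, 95% interval −1.5 to −0.63; limma adjusted p = 0.00387). Shank2 went from 15.23 ± 3.27 to 6.82 ± 1.71 FPKM, and fell by 52.1% (log2 change −1.06, SE 0.19, interval −1.47 to −0.65; limma adjusted p = 0.0031). Dlg2 fell by a smaller amount, from 43.3 ± 5.06 to 35.42 ± 2.09 FPKM (log2 change −0.28, SE 0.09, interval −0.47 to −0.09; limma adjusted p = 0.0316). These 3 of 9 genes were called lower and none higher, beside 28.6% of all tested genes called in either direction and 16.6% called lower. Shank3, the third member of its family, had 26.27 ± 2.25 and 21.97 ± 2.97 FPKM and was not called (log2 change −0.25, interval −0.52 to 0.01; limma adjusted p = 0.136).

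The other KO-labelled values were not called, although that of Dlgap3 was slightly lower than that of Dlg2 (−0.293 against −0.279). Dlgap3 had a log2 change of −0.29 (limma adjusted p = 0.0712) and Dlg1 of −0.26 (limma adjusted p = 0.113). Dlgap1 and Dlg3 had positive changes of 0.17 and 0.15, and Dlg4 had −0.11 (limma adjusted p = 0.104, 0.111 and 0.352). The libraries of the 2 environments did not overlap for 6 genes (Dlg2, Shank1, Shank2 and Dlgap3 lower, Dlg3 and Dlgap1 higher), against 52.1% of all tested genes. The median log2 change was −0.26 over the 9 and −0.04 over all tested genes. Without home cage KO-labelled library 2, which leaves 1 library in that group, assumed to vary like the other groups, Shank1 had −0.848 (limma adjusted p = 0.0741), Shank2 −0.856 (limma adjusted p = 0.0609) and Dlg2 −0.162 (limma adjusted p = 0.321), and 0 of the 9 genes were called. Calls over all tested genes were 505 in that fit, beside 3400.

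With the genotype labels averaged, Shank1 fell by 40% after exploration (log2 change −0.74, SE 0.14, 95% interval −1.04 to −0.43; limma adjusted p = 0.00328) and Shank2 fell by 42.2% (−0.79, SE 0.13, −1.08 to −0.5; limma adjusted p = 0.0018). Dlg2 fell by 13.6% (log2 change −0.21, SE 0.06; limma adjusted p = 0.0217). Environment and table cannot be told apart in these values. All 6 exploration libraries were below all 4 home cage libraries for these 3 genes, beside 10.4% of all tested genes that showed this in the lower direction. These 3 were again the only members called, beside 31.9% of all tested genes called in either direction and 19.2% called lower. Leaving out any 1 library kept the calls of Shank1 (−0.847 to −0.628) and Shank2 (−0.894 to −0.688). The call of Dlg2 was lost without either home cage WT-labelled library (limma adjusted p = 0.0505 and 0.0765), without home cage KO-labelled library 2 (0.105) or without exploration WT-labelled library 3 (0.0516).

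The averaged changes of the 6 members that were not called were small. They were 0.09 for Dlg3, 0.05 for Dlgap1, 0.04 for Dlg4, −0.11 for Shank3, −0.12 for Dlgap3 and −0.17 for Dlg1, with limma adjusted p-values from 0.145 to 0.638. For Dlg4 this is the mean of opposite signs, 0.19 in the WT-labelled and −0.11 in the KO-labelled libraries, which depended on the scaling: both were negative with quantile normalization (−0.0367, and −0.289 with limma adjusted p = 0.0425) and both positive with GC and length trends removed (0.304 and 0.136).

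**Figure D2:**
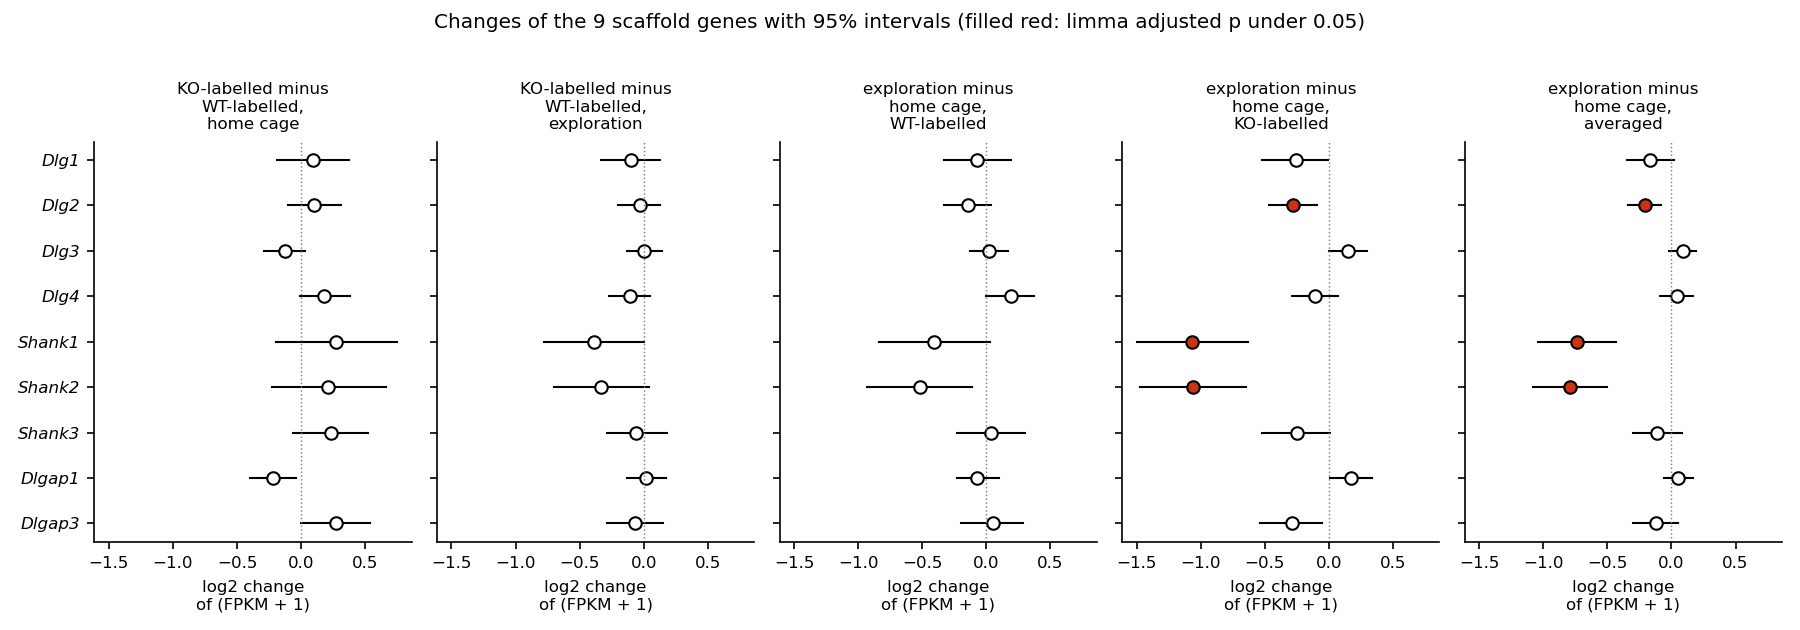
Log2 change of (FPKM + 1) (x axis) with its 95% interval for each scaffold gene (y axis) in 5 comparisons; filled points passed limma's test at an adjusted p under 0.05. Filled points stand only in the KO-labelled and averaged environment panels, at Shank1, Shank2 and Dlg2.

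Whether the response to exploration differed between the genotype labels was tested as an interaction. Limma called 0 of the 9 genes, beside 0.875% of all tested genes, although 3 of the 9 had an unadjusted p under 0.05. Dlg4 had an interaction of −0.29 (SE 0.12, 95% interval −0.55 to −0.04; limma adjusted p = 0.241) and Shank1 of −0.66 (SE 0.28, −1.27 to −0.05; limma adjusted p = 0.271). For Shank2 it was −0.54 (SE 0.27, −1.12 to 0.04; limma adjusted p = 0.343) and for Dlg2 −0.14 (limma adjusted p = 0.627). The calls of Shank1, Shank2 and Dlg2 in the KO-labelled libraries alone are thus not shown to differ from the WT-labelled libraries. Dlgap1 and Dlgap3 had interactions of 0.24 and −0.34 (limma adjusted p = 0.299 and 0.322), the first with the third unadjusted p under 0.05.

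The make-up of the Shank family shifted along with these values. Shank1 gave 46.9% to 48.3% of the family's summed FPKM in the home cage WT-labelled libraries and 46.8% to 49.9% in the home cage KO-labelled ones, against 41.5% to 44.1% and 35.3% to 40.3% after exploration. Shank2 gave 18.5% to 19.9% and 18.3% to 19.4% in the home cage, and 15.4% to 15.9% and 13.2% to 15.0% after exploration. Shank3 therefore held 33.2% in both home cage WT-labelled libraries and 30.8% to 34.9% in the KO-labelled ones, and 40% to 43% and 44.8% to 51.5% after exploration. Shank1 was the leading Shank RNA in all 4 home cage libraries and in exploration WT-labelled libraries 1 and 2. Shank3 led in all 3 exploration KO-labelled libraries and in exploration WT-labelled library 3 (43% against 41.5% for Shank1). A share within a library does not depend on a single factor applied to all its genes. It does depend on settings that shift genes unequally, such as quantile normalization or the removal of GC and length trends. It shows only unequal change among the 3 genes. The summed Shank FPKM was 65.22 to 68.61, 70.62 to 90.54, 45.81 to 61.47 and 38.03 to 56.25 in the 4 groups, in the order used above.

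**Figure D3:**
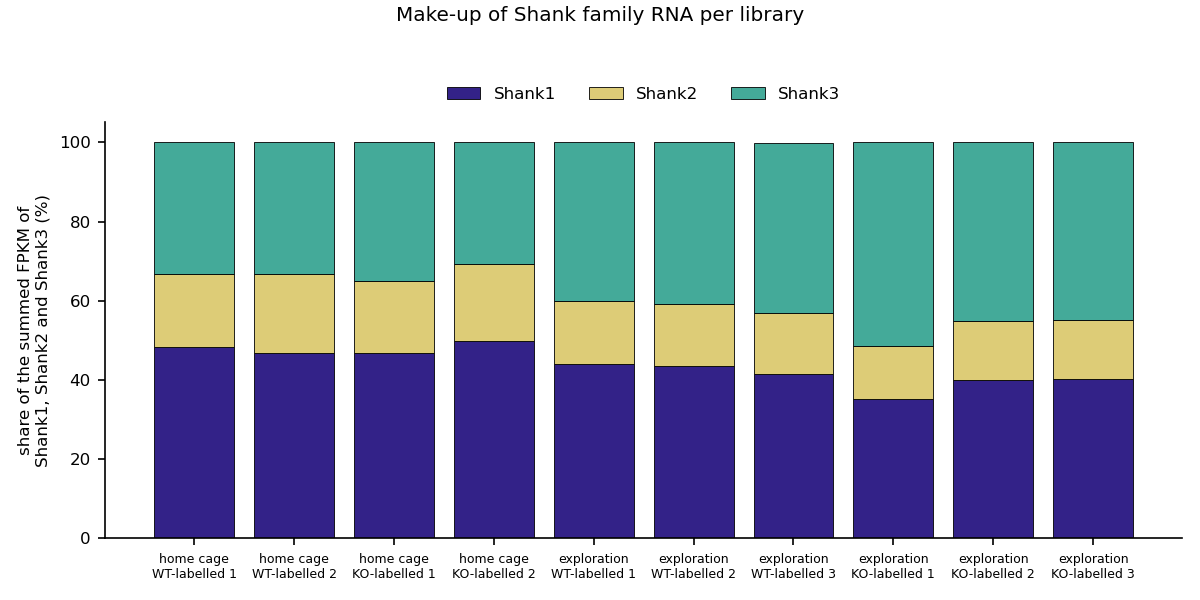
Share of the summed FPKM of Shank1, Shank2 and Shank3 (y axis, percent) in each library (x axis, grouped by environment and genotype label), as stacked bars. The Shank3 part is at most 34.9% in the home cage bars and at least 40% in the exploration bars.

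Environment values went with transcript length over all tested genes, and the called members are the long ones. The median log2 change between exploration and home cage, averaged over the genotype labels, was 0.15 in the shortest of 5 equal classes of transcripts (up to 1700 nt) and −0.19 in the longest (over 5020 nt), where 42.8% of genes were called lower. Shank1 (9826 nt), Shank2 (8169 nt) and Dlg2 (7490 nt) are the 3 longest of the 9 members and are the 3 called. Shank3 has 7131 nt, Dlg1 6143 nt, Dlg4 5472 nt, Dlgap1 5276 nt and Dlg3 4956 nt. These lengths are those of the longest matched transcript, and which isoforms the authors' FPKM rest on is not given in the sources used here.

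Among the 974 tested genes with transcripts of at least 7000 nt the median log2 change was −0.28 in the KO-labelled, −0.22 in the WT-labelled and −0.25 in the averaged comparison, and 55% of them were called lower in the last. Dlg2 sat in the middle of these genes, since 50.4% of them had as low a change or a lower one in the KO-labelled comparison and 57.5% in the averaged one. Shank1 and Shank2 sat near the lower end. In the KO-labelled comparison 20 of the 974 genes (2.05%) were as low as Shank1 or lower and 21 (2.16%) as low as Shank2. In the averaged comparison the numbers were 40 (4.11%) and 29 (2.98%), and in the WT-labelled one 164 (16.8%) and 88 (9.03%). Shank3 sat in the middle or upper range, with 53.9% and 77.9% of the long genes as low or lower in the KO-labelled and averaged comparisons.

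When the trends with GC content and transcript length were removed from each library, a setting chosen after the data had been seen, the Shank values shrank and kept their calls. In the KO-labelled comparison Shank1 had −0.638 (limma adjusted p = 0.0142) and Shank2 −0.717 (limma adjusted p = 0.00603). Averaged, they had −0.411 (0.0202) and −0.523 (0.00473, limma adjusted p both). Dlg2 lost its call, with −0.0745 (limma adjusted p = 0.405) and an averaged −0.00556 (limma adjusted p = 0.94). Other members gained one in the higher direction. In the KO-labelled comparison Dlg3 had 0.352 (limma adjusted p = 0.0082) and Dlgap1 0.328 (limma adjusted p = 0.0086). Dlg3 had an averaged 0.241 (limma adjusted p = 0.00902), Dlg4 0.22 (0.0107) and Dlgap1 0.2 (0.0154). In the WT-labelled comparison this setting called Dlg4 at 0.304 (limma adjusted p = 0.0388), while Shank1 stood at −0.183 and Shank2 at −0.328 without a call. Shank1 and Shank2 were thus the members called lower both with and without these trends.

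**Figure D4:**
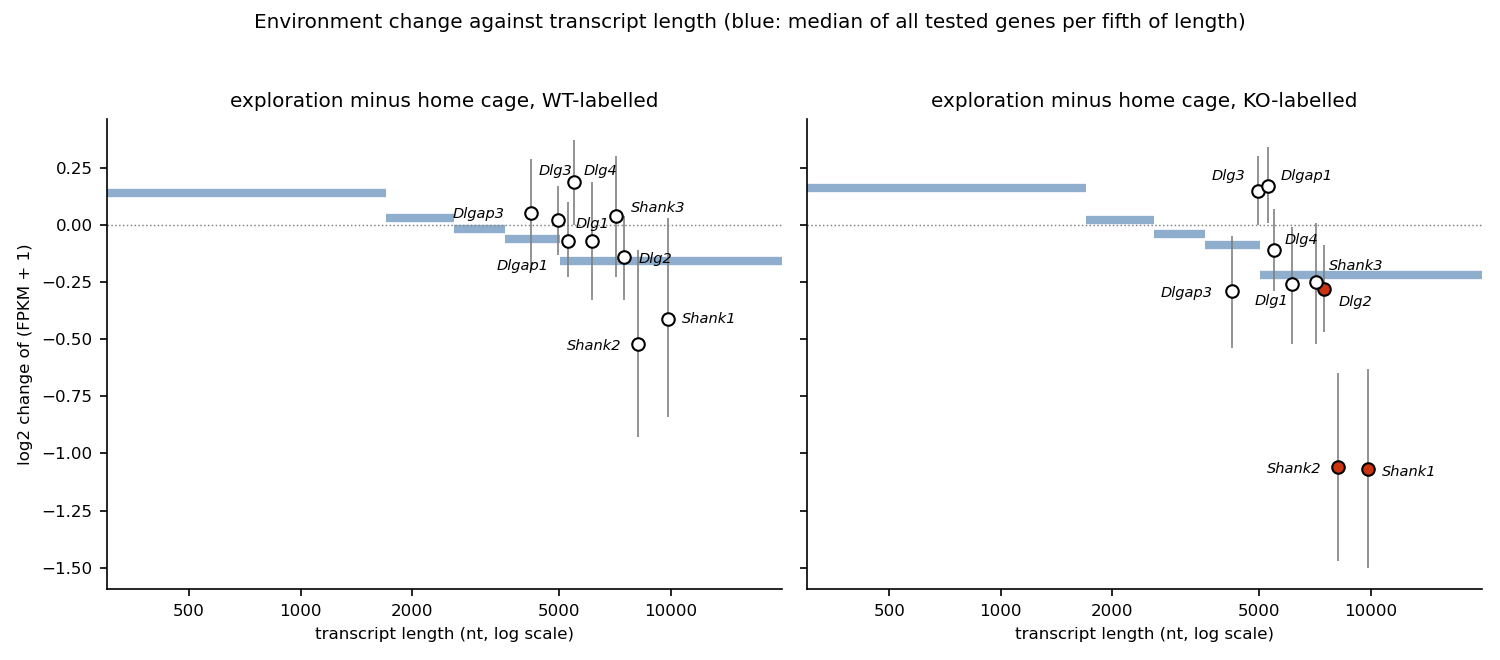
Log2 change between exploration and home cage (y axis, with 95% intervals) against transcript length (x axis, log scale, cut at both ends) for the 9 scaffold genes, in the WT-labelled and the KO-labelled libraries; blue bars give the median of all tested genes in each of 5 length classes and filled points passed limma's test. Shank1 and Shank2 lie below the bar of the longest class in both panels, and Dlg2 lies near it.

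**Figure D5:**
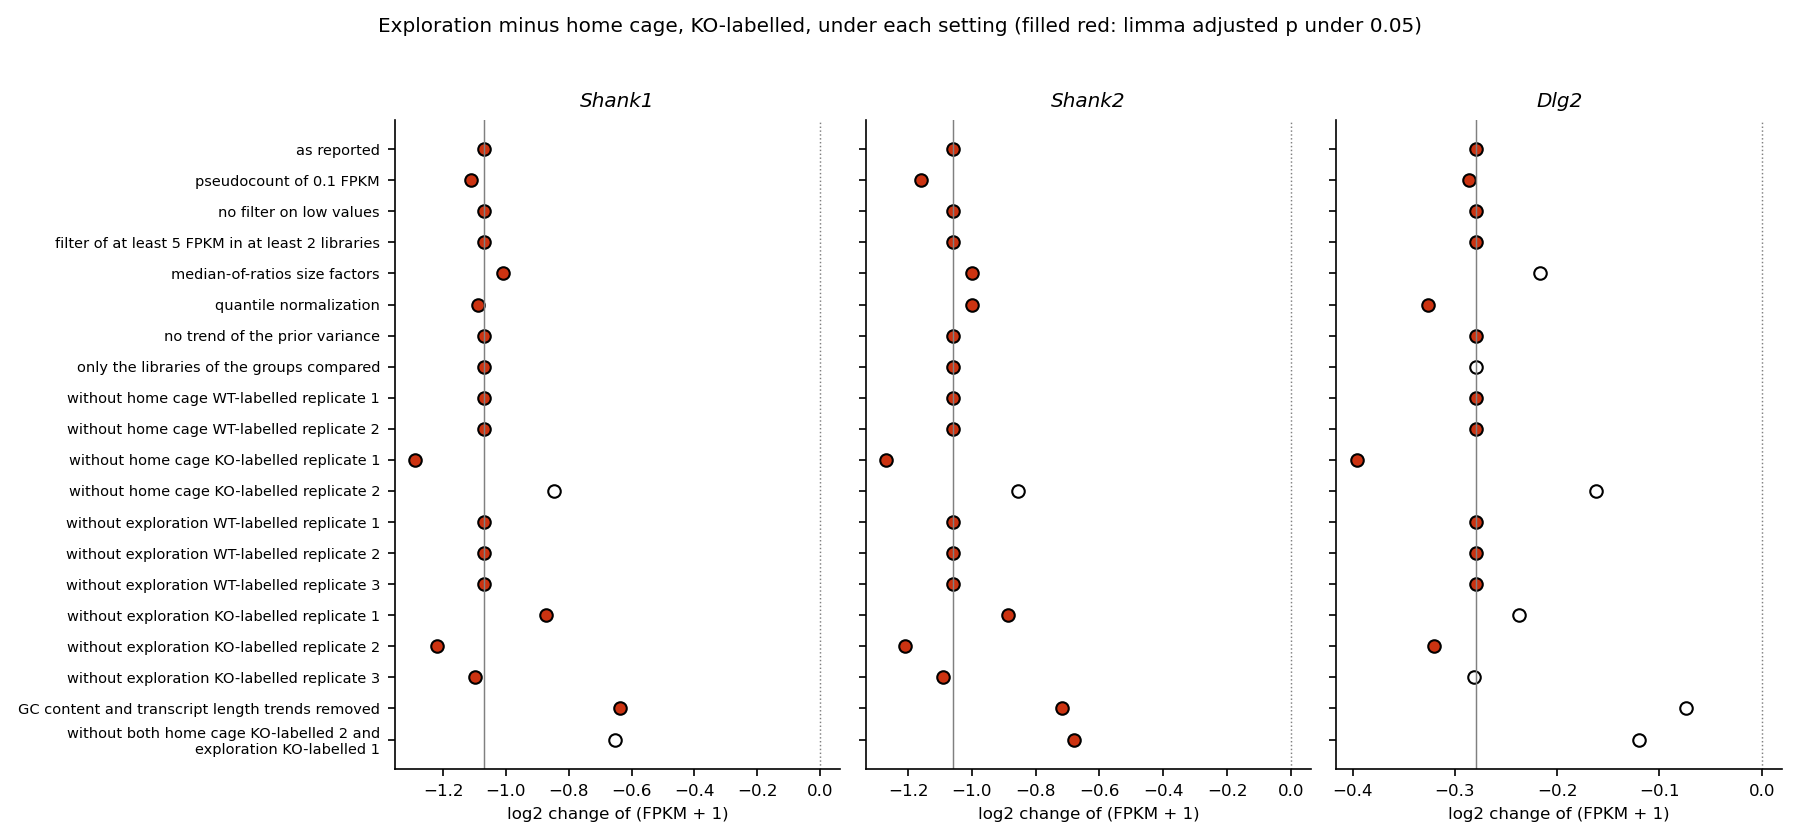
Log2 change between exploration and home cage in the KO-labelled libraries (x axis) for Shank1, Shank2 and Dlg2 under each processing setting (y axis); the grey line marks the reported value and filled points passed limma's test. All points lie below 0; leaving out home cage KO-labelled library 2 alone ended the calls of Shank1 and Shank2, leaving it out with exploration KO-labelled library 1 ended that of Shank1, and Dlg2 lost its call in 7 settings.

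Some members also moved together from library to library. Over the 10 libraries Shank1 and Shank2 had a Pearson correlation of 0.99 on the log2 scale, and Dlg2 had 0.95 with each. Within the 6 exploration libraries alone these were 1.0, 0.92 and 0.93. Shank3 had 0.82 with Dlgap3 and 0.77 with Shank1 over the 10 libraries, and 0.84 and 0.85 within exploration. Dlg3 ran against Dlg1, Dlg2 and Shank1 over the 10 (−0.84, −0.7 and −0.59). Within exploration it had −0.88, 0.21 and 0.2 with them. Over the 10 libraries Dlgap1 had negative correlations with every other member but Dlg3 (0.73). The points share the 2 tables, the depth and the base composition of each library, so the correlations describe these libraries and carry no test. Over the 10 libraries, the genes whose pattern was most like that of Dlg4 were Diras1 (0.922), Tmem204 (0.894), Slc25a23 (0.88), Dynll2 (0.877), a dynein light chain that binds the Dlgap proteins, and the listed precursor Mir703 (0.862). Of the members Dlgap3 came closest (0.759, place 53 of 11431 genes), followed by Shank3 (0.682, place 137). Within the 6 exploration libraries alone the order was another, with 0.99 for Shank1 and Shank2, 0.9 for Dlgap3 and Dlg2 and 0.88 for Shank3, while Shank1 had 0.34 over all 10. Tmem204 and Mir703 have means of 1.16 and 1.14 FPKM, at which single fragments weigh heavily.

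Membrane proteins that MAGUK scaffolds hold were called in the lower direction alone after exploration. In this list and those that follow, as for the members, environment and table cannot be told apart. Of the 14 genes on this list, which are NMDA receptor subunits, AMPA receptor auxiliary subunits, neuroligins and the adhesion protein Lrrtm2, potassium channels and the Lgi1 and Adam22 pair, 7 were lower and none higher after exploration in the averaged comparison, with a median log2 change of −0.22 beside −0.03 over all tested genes, of which 19.2% were called lower. Grin2b, the GluN2B subunit of the NMDA receptor, went from 10.5 ± 1 and 10.2 ± 0.53 FPKM in the home cage (WT-labelled and KO-labelled) to 6.89 ± 0.563 and 6.42 ± 0.68 FPKM. Its log2 change was −0.58 (limma adjusted p = 0.000515), and it was called under either genotype label (WT −0.55, KO −0.6, limma adjusted p = 0.0141 and 0.0032). With 1 library left out at a time, the WT-labelled call was lost in 3 fits and the KO-labelled call in 1. The log2 changes of Grin2b were then −0.638 to −0.46 and −0.676 to −0.553. Lgi1, the secreted ligand of Adam22 that is tied to Dlg4, fell by 0.32, Adam22 by 0.39 and the inhibitory synapse neuroligin Nlgn2 by 0.29 on the log2 scale (limma adjusted p = 0.00189, 0.00256 and 0.00379).

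Under the WT label, where 6.31% of all tested genes were called in either direction, 2 of these 14 genes were lower, Grin2b and Adam22 (−0.38, limma adjusted p = 0.0439). Under the KO label, where 16.6% of all tested genes were called lower, 7 were lower, among them Lgi1 (−0.43, limma adjusted p = 0.00296), Nlgn2 (−0.43, 0.00384) and the potassium channel Kcna2 (−0.47, 0.01). These transcripts are long too, with 7484 nt for Grin2b, 7780 nt for Lgi1 and 9161 nt for Adam22. With the length and GC trends removed, 1 gene (Grin2b) was called in the averaged comparison, 2 in the KO-labelled and 0 in the WT-labelled comparison. Without home cage KO-labelled library 2 the KO-labelled count was 2. Any 1 library of the WT label left out took the WT-labelled count to 0 or 1. Between the genotype labels limma called 0 of the 14 in the home cage, after exploration and averaged, with 3, 3 and 5 at an unadjusted p under 0.05.

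Other scaffold proteins of the density (22 genes) moved both ways. After exploration 9 were lower and 2 higher in the averaged comparison, with a median log2 change of −0.1, where 31.9% of all tested genes were called in either direction. Magi1 (−0.49, limma adjusted p = 0.00374), a MAGUK with inverted domain order, Tanc2 (−0.36, limma adjusted p = 0.00451), a partner of Dlg4, and Lrrc7 (−0.28, limma adjusted p = 0.012), known as densin, fell. Lin7b, an adaptor of the Cask complex, was higher by 0.5 (limma adjusted p = 0.00631), and its transcript of 735 nt is the shortest of these 4. The relatives of the members did not all follow: Dlgap2 had −0.3 (limma adjusted p = 0.023), Dlgap4 −0.03 (limma adjusted p = 0.713) and Homer1 0.08 (limma adjusted p = 0.441). Dlgap2, Dlgap4 and Homer1 were named after their values were seen, as relatives or partners of the members.

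Under the WT label 1 of the 22 was lower (Tanc2, −0.39, limma adjusted p = 0.048), beside 6.31% of all tested genes called in either direction. Under the KO label 8 were lower and 5 higher, beside 28.6% of all tested genes called in either direction. Begain, which binds the guanylate kinase domain of Dlg4, had −0.42 (limma adjusted p = 0.00229), Magi1 −0.73 (0.00384), Lin7a −0.64 (0.00467) and Lin7b 0.75 (0.00598). Without home cage KO-labelled library 2 the KO-labelled count of 13 fell to 1, and without exploration KO-labelled library 3 or home cage KO-labelled library 1 to 7 and 8. The averaged count of 11 was 4 without home cage KO-labelled library 2 and 3 without home cage WT-labelled library 2, and the call of Tanc2 in the WT-labelled libraries was lost without any 1 of those 5. Between the genotype labels 2 of the 22 were called higher in the home cage KO-labelled libraries, beside 3.57% of all tested genes called in either direction. They were Lin7a (7.04 ± 0.615 against 11 ± 1.48 FPKM, log2 change 0.58, limma adjusted p = 0.0412) and Begain (37.8 ± 0.0707 against 47.1 ± 0.573 FPKM, 0.31, limma adjusted p = 0.0476). With 1 library left out at a time, the call of Lin7a was lost in 7 of the 10 fits and that of Begain in 8. The log2 changes were then 0.453 to 0.704 and 0.296 to 0.32. Both calls were lost without home cage KO-labelled library 2 and without either home cage WT-labelled library, fits that leave 1 library in a group.

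Among 13 signalling and actin partners, Nos1 had the largest difference. The neuronal nitric oxide synthase, which binds the PDZ domains of Dlg4, had 8.05 ± 0.424 and 12.6 ± 5.46 FPKM in the home cage and 6.92 ± 1.05 and 4.29 ± 0.17 FPKM after exploration, in the WT-labelled and KO-labelled libraries. It fell by 1.3 on the log2 scale in the KO-labelled comparison (limma adjusted p = 0.00185) and by 0.75 in the averaged one (limma adjusted p = 0.00273). Arhgef7, an exchange factor bound by Shank proteins, fell by 0.26 in the KO-labelled comparison (limma adjusted p = 0.0281). In that comparison 3 of the 13 were lower and none higher. Of all tested genes 16.6% were called lower there and 28.6% in either direction. Averaged, 2 of the 13 were lower (Nos1 and Arhgef7) and 1 higher (Dynll1, 0.24, limma adjusted p = 0.0414), a share near the 31.9% of all tested genes. The call of Dynll1 was lost in 7 of the 10 fits that left out 1 library, those without home cage KO-labelled library 1, exploration WT-labelled library 2 or exploration KO-labelled library 2 being the other 3, and with no filter (limma adjusted p = 0.0824). Without home cage KO-labelled library 2 the KO-labelled count was 1 of 13. Limma called none in the WT-labelled libraries, with 3 at an unadjusted p under 0.05, and none between the genotype labels (2 in the home cage, 6 after exploration and 1 averaged at an unadjusted p under 0.05).

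Of 14 enzymes and RNA-binding proteins that act on the scaffolds, 2 were higher and 4 lower in the averaged comparison, beside 31.9% of all tested genes called. Abhd17a, an enzyme that removes palmitate from Dlg4, was higher after exploration in both genotype labels, with 67.6 ± 2.95 and 76.9 ± 9.33 FPKM in the home cage and 88.5 ± 2.72 and 104 ± 2.85 FPKM after exploration (log2 change 0.41, limma adjusted p = 0.000675). Its transcript has 1468 nt. Plk2, a kinase that phosphorylates scaffold partners, rose by 0.22 (limma adjusted p = 0.0236), with −0.04 under the WT label and 0.48 under the KO label (interaction 0.52, limma adjusted p = 0.0774). Its averaged call was lost without either home cage WT-labelled library, home cage KO-labelled library 2 or exploration WT-labelled library 3. The palmitoyltransferase Zdhhc8 fell by 0.27 (limma adjusted p = 0.00866) and the splicing repressor Ptbp1 by 0.33 (limma adjusted p = 0.0199). In the WT-labelled libraries, where 6.31% of all tested genes were called, Abhd17a alone was called (0.38, limma adjusted p = 0.0193), and not without any 1 of them. The averaged count of 6 was 2 without home cage WT-labelled library 2 or home cage KO-labelled library 2, and 3 without home cage WT-labelled library 1 or exploration WT-labelled library 3.

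Of 6 other RNAs found in dendrites, Bc1 was higher and Itpr1 lower in the averaged comparison, beside 31.9% of all tested genes called in either direction. Bc1, a short non-coding RNA of dendrites with 168 nt, went from 26.6 ± 5.27 and 64.3 ± 43 FPKM to 218 ± 20.7 and 201 ± 55.5 FPKM (averaged log2 change 2.38, limma adjusted p = 0.000106). Itpr1, the calcium release channel of the endoplasmic reticulum, fell by 0.34 (limma adjusted p = 0.0145), a call lost without home cage WT-labelled library 2 or home cage KO-labelled library 2. Camk2a, the kinase RNA carried into dendrites, was nearly level with 572 and 603 FPKM against 619 and 626 FPKM (log2 change 0.08, limma adjusted p = 0.477). It was chosen after its values were seen.

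Markers of other cells were read beside the environment values. Of 6 interneuron markers 2 were called higher after exploration in the averaged comparison, of 6 astrocyte markers 3, of 6 oligodendrocyte markers 4 and of 6 microglia markers 4, and none of these 24 was called lower. Over all tested genes 31.9% were called in that comparison, 39.7% of these in the higher direction. Interneuron markers summed to 173 to 176 and 182 to 189 FPKM in the home cage and 242 to 287 and 208 to 254 FPKM after exploration. Oligodendrocyte markers summed to 137 to 164, 188 to 225, 197 to 365 and 232 to 265 FPKM in the 4 groups. In the KO-labelled comparison, where Shank1 and Shank2 differed most, 28.6% of all tested genes were called in either direction. In it 1 astrocyte and 1 interneuron marker were called and no oligodendrocyte or microglia marker. Markers of hippocampal subfields moved there in both directions. Of the CA1 markers Wfs1 rose by 1.1 on the log2 scale, while Fibcd1 and Mpped1 each fell by 0.4 (limma adjusted p = 0.00746, 0.00759 and 0.00809). Of the 4 tested markers of CA2, CA3 and the dentate gyrus, Bok rose by 2.39 and Amigo2 by 2.22, and Grik4 fell by 0.9 (limma adjusted p = 0.000769, 0.0172 and 0.0203).

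Neuron markers (Rbfox3, Snap25, Syt1, Slc17a7) summed to 2150 to 2160, 2360 to 2470, 2150 to 2300 and 2200 to 2380 FPKM. In the KO-labelled comparison the glutamate transporter gene Slc17a7 fell by 0.48 (limma adjusted p = 0.00213) and Rbfox3 rose by 0.24 (limma adjusted p = 0.0337), and averaged they changed by −0.29 and 0.21 (limma adjusted p = 0.00293 and 0.0132). The part of these markers' cells in the scaffold values was not tested.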

How the data were processed

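The values are FPKM per gene and library, deposited by the authors in 1 table for exploration (19156 genes) and 1 for the home cage (18257 genes), joined on the NCBI gene ID (17986 shared genes). HISAT, StringTie, GATK, Bowtie2 and RSEM and the builds GRCm38 and mm10 are named per the submitters' processing notes, without roles or versions. Whether the tables were normalized together, and whether counting used strand, are not given in the sources used here. FPKM are not counts, so limma 3.58.1 (R 4.3.3) was fitted to log2(FPKM + 1), a scale that understates changes of low genes. The 11892 genes that reached 1 FPKM in 2 or more libraries entered, all 10 libraries and 4 group means in one fit with a trended prior variance (6 residual and 5.71 prior degrees of freedom). P-values were adjusted by Benjamini-Hochberg over all tested genes within each of 7 comparisons and measure the spread between these animals, and calls needed an adjusted p under 0.05. The procedure was tested on simulated data.

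The members and gene lists were chosen with earlier results of these data known. Genes named were the 9 members, Neil3, up to 4 called genes with the smallest adjusted p from each list and comparison, and the 5 genes most like Dlg4 by Pearson correlation among genes with a mean of at least 1 FPKM. Coordinates, lengths and sequences are those of the longest matched GENCODE M21 transcript per gene on GRCm38, which gave length and GC content for 98.9% of tested genes. Depth was estimated from the steps of low FPKM values with these lengths less 100 nt. Alternatives tried were a smaller pseudocount (0.1), filtering at 5 FPKM or not at all, quantile normalization, size factors by median of ratios, a prior variance without trend, a fit of only the groups compared, and leaving out each library. Chosen after seeing the data were the removal of GC and length trends, leaving out home cage KO-labelled library 2 and exploration KO-labelled library 1 together, and the use of all settings on the gene lists. The 6 samples of the learning condition were not analysed here. One gene that the naming rule picks is not reported here.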

Additional observations from a re-analysis of the deposited data

How the results depend on the processing

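In the averaged comparison of environments the falls of Shank1 and Shank2 kept their direction and their call under every setting run. Members called, as reported 0 in the WT-labelled, 3 in the KO-labelled and 3 in the averaged comparison of environments, changed as follows. Quantile normalization gave 5 in the KO-labelled comparison. The fit of only the groups compared gave 1 in the WT-labelled comparison (Shank2, −0.519, limma adjusted p = 0.0329). Removing GC and length trends gave 1, 4 and 5. Leaving out home cage KO-labelled library 2 and exploration KO-labelled library 1 together gave 1 in the WT-labelled and 1 in the KO-labelled comparison. Leaving out 1 library gave 0 to 4 in the KO-labelled, 2 to 4 in the averaged and 0 to 0 in each other comparison. Dlg2 in the KO-labelled comparison also lost its call with size factors (−0.217, limma adjusted p = 0.0652), with only the groups compared (0.104), and without exploration KO-labelled library 1 (0.0711) or 3 (0.0502). Dlg1 gained one without home cage KO-labelled library 1 (−0.418, 0.0382, and averaged −0.243, 0.0462).

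Some uncalled values changed sign, among them Dlg4 in WT-labelled libraries (0.19 as reported) and Shank3 in KO-labelled ones (−0.25 as reported). With quantile normalization these were Dlg3 (−0.016) and Dlgap1 (−0.00906) between genotype labels after exploration, Dlg1 (0.0135) and Dlg4 (−0.0176) between labels averaged, Dlg3 (−0.0847), Dlg4 (−0.0367) and Dlgap3 (−0.0188) between environments in WT-labelled libraries, and Dlg3 (−0.0155), Dlg4 (−0.163) and Dlgap1 (−0.0982) between environments averaged. With GC and length trends removed they were Shank3 (0.105) and Dlgap3 (0.062) between labels after exploration, Dlg1 (0.0123), Shank1 (0.0224) and Shank2 (0.000293) between labels averaged, Dlg1 (0.101), Dlg2 (0.0634) and Dlgap1 (0.0722) between environments in WT-labelled libraries, Dlg4 (0.136) and Shank3 (0.0988) in KO-labelled ones, and Shank3 (0.148) and Dlgap3 (0.0338) averaged. Without both libraries they were Dlg1 (−0.065) and Dlg2 (−0.0135) between labels in the home cage, Dlg2 (0.00866), Shank3 (0.018) and Dlgap3 (0.0366) after exploration, Dlg2 averaged (−0.00243) and the interaction of Dlg2 (0.0222). Leaving out 1 library gave ranges across 0 between labels in the home cage for Dlg1 (−0.065 to 0.244) and Dlg2 (−0.0135 to 0.22). After exploration they were Dlg2 (−0.0741 to 0.00866), Dlg3 (−0.0292 to 0.0343), Shank3 (−0.159 to 0.018), Dlgap1 (−0.0422 to 0.067) and Dlgap3 (−0.149 to 0.0366). Between labels averaged they were Dlg1 (−0.0849 to 0.0697), Dlg2 (−0.0236 to 0.0933), Shank1 (−0.169 to 0.0508) and Shank2 (−0.16 to 0.0462). Between environments in WT-labelled libraries they were Dlg3 (−0.000995 to 0.042), Shank3 (−0.0314 to 0.135) and Dlgap3 (−0.0327 to 0.125). The causes were not tested.

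Over all tested genes, leaving out 1 library gave 13 to 588 calls between labels in the home cage (425 as reported), 17 to 104 after exploration (71), 28 to 319 averaged (253), 84 to 1004 between environments in WT-labelled libraries (750), 505 to 3568 in KO-labelled ones (3400), 1916 to 4248 averaged (3790) and 0 to 436 for the interaction (104). Counts of all genes called that moved by over 1.5 times between labels in the home cage were 47 with no filter, 646 without GC and length trends and 141 without both libraries. After exploration they were 16 with no filter, 37 with no variance trend, 37 with only the groups compared and 153 without both libraries. Averaged they were 54 with no filter, 427 with quantile normalization and 574 without GC and length trends. Between environments they were 492 with the filter of 5 FPKM, 1710 with only the groups compared and 1473 without both libraries in WT-labelled ones, 1700 and 858 for the last pair of settings in KO-labelled ones, and 2268 without both libraries averaged. For the interaction they were 0 with the pseudocount of 0.1, 0 with no filter, 68 with the filter of 5 FPKM and 0 with no variance trend. Size factors moved the share of higher genes among the calls from 42% to 54.6% in KO-labelled and from 39.7% to 51.9% in averaged comparisons of environments. No scaling moved the median of all genes by more than 0.059 on the log2 scale. No paired analysis was possible because the sample titles carry no replicate numbers that the groups share. Depth limits low genes rather than the members, and groups of 2 and 3 limit the precision.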
